A study of Homo sapiens with 8 samples.

Results

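Ceramide synthase 2 (CERS2) and 9 other genes of the core sphingolipid pathway were followed in HCT116, an established line of human colorectal cancer, with and without a transfected mimic of the microRNA miR-8073. The genes were taken by the symbol that the array's probe table gives, with older CERS symbols written LASS included, and they comprised CERS2, CERS4, CERS5, CERS6, SPTLC1, SPTLC2, DEGS1, UGCG, SGMS1 and ASAH1. These 10 genes had 12 probes, out of 24460 probes and 17559 named genes on the array, with 2 probes each for CERS2 and CERS5. CERS2 was chosen by its signal in the mimic arrays, which was among the most lowered of all, so its values against both control groups are given as a description without a test. The other 9 genes were taken for their place in the pathway.

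The study asked which mRNAs change when a synthetic miR-8073 mimic is brought into these cells. RNA of 3 mimic-transfected samples, 3 samples transfected with a microRNA negative control sequence and 2 mock samples transfected without a sequence was hybridised to 1 array each, 8 arrays in all, with a single dye. All 8 samples were HCT116 cells, so every group shares the genotype of 1 cell line. The labels give no dose or time, and the study's text gives 2 different times between transfection and RNA extraction. Nothing says that the samples of a group came from separate cultures, so the p-values rest on a spread that may be technical only. The number of arrays limits the precision of every value.

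Sphingolipids are built on a long-chain base. Serine palmitoyltransferase, with the catalytic subunits SPTLC1 and SPTLC2, joins serine and palmitoyl-CoA. Ceramide synthases (CERS) then attach a second fatty acid, and each CERS enzyme prefers certain chain lengths, with CERS2 known for very long chains, CERS4 for long to very long ones and CERS5 and CERS6 for palmitoyl-CoA. The desaturase DEGS1 completes ceramide, which SGMS1 turns into sphingomyelin and UGCG into glucosylceramide, while the lysosomal acid ceramidase ASAH1 splits it again. In the gut epithelium, as in other tissues, ceramides and the glycolipids made from them are membrane components, and ceramide is also known as a signal in cell stress.

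A microRNA pairs with mRNAs mainly through its seed, bases 2 to 8 from the 5′ end. The mature miR-8073 sequence, credited to RefSeq (GRCh38.p14), is printed because it is the agent that separates the mimic group from both controls, with the seed in capitals.
hsa-miR-8073: aCCUGGCAgcagggagcgucgu
The 22 bases lie at chr13:110340968-110340989 on the plus strand, within the span of COL4A2, a collagen gene. Sites for this seed in the mRNAs of the 10 genes were not analysed here.

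Signals are in scanner units after background correction and quantile normalisation, with the offset of 50 used in the correction taken off again. Log2 changes are on the scale of log2(signal + 50), on which changes of dim probes are understated, and they are given with their standard error (SE). A change was called at an adjusted p under 0.05, from limma with Benjamini-Hochberg adjustment over 12904 probes above background on at least 2 arrays. Probes differ in brightness for reasons other than transcript amount, so levels were compared between groups for 1 probe at a time. Each array carried between 11559 and 12786 probes above background, and arrays correlated at 0.993 to 0.996 within groups and at 0.983 to 0.993 between groups. Of 8 intestinal epithelial marker genes with a probe, 6 were above background on all arrays and 1, CEACAM5, on none. Their summed signal was 7860 to 9665 in mimic samples, 6967 to 8518 in negative control samples and 8066 to 8218 in mock samples. Of 5 leukocyte marker genes with a probe none was above background on all arrays and 3, PTPRC among them, were on none, with sums of 11.9 to 14.7 in mimic, 10.5 to 12.5 in negative control and 11.9 to 12.5 in mock samples. Of 6 fibroblast markers 2, DCN and PDGFRB, were above background on all arrays and 4 on none, with sums of 67.2 to 84.8 in mimic, 72.5 to 79.1 in negative control and 63.3 to 71.1 in mock samples. Of 4 endothelial markers with a probe 1, KDR, was above background on all arrays and 3 on none, with sums of 14.5 to 16.4 in mimic, 14.4 to 17.8 in negative control and 12.3 to 13.8 in mock samples. The part of other cell types in the results was not tested.

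CERS2 was the gene of the set with the widest separation between mimic and control arrays. Its brighter probe, H200008861, had signals of 73.2, 98.7 and 111 in the mimic samples, 341, 416 and 429.9 in the negative control samples and 327 and 409 in the mock samples. Every mimic array lay far below every control array, and the negative control and mock arrays overlapped. The means were 94.4 ± 19.4 with the mimic (SD, n = 3), 396 ± 47.7 with the negative control (SD, n = 3) and 368 ± 58.3 in mock cells (SD, n = 2). This was a 4.19-fold lower signal than with the negative control, a log2 change of -1.63 ± 0.13 (SE), and a 3.90-fold lower signal than in mock cells, a log2 change of -1.54 ± 0.14 (SE). In bulk RNA such as this, fewer cells carrying a transcript and less of it per cell cannot be told apart.

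The second CERS2 probe, AHsV10003503, gave 79.9, 70.3 and 70.7 in the mimic samples, 253, 221 and 274 in the negative control samples and 269 and 268 in the mock samples. Again no mimic array reached any control array. The signal was 3.38-fold lower than with the negative control, a log2 change of -1.27 ± 0.067 (SE), and 3.65-fold lower than in mock cells, a log2 change of -1.37 ± 0.075 (SE). Ordered by log2 change among 12904 probes, the 2 CERS2 probes ranked 6th and 12th from the most lowered against the negative control and 5th and 6th against mock cells. As these ranks and changes are what CERS2 was chosen for, nothing further is drawn from them. Across the 8 arrays the normalised values of the 2 probes correlated at 0.965, a description of arrays that share the group difference.

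The separation was present before normalisation. The brighter CERS2 probe had uncorrected intensities of 129, 169.7 and 186 with the mimic, 342, 447 and 523 with the negative control and 384 and 485 in mock cells. The blank spots averaged 59.8 to 64.3 over the 8 arrays, so the mimic arrays kept a CERS2 reading above the blanks. In the deposited log2 values, normalised by the authors, the same probe stood at 6.33, 6.69 and 6.66 with the mimic, 8.34, 8.64 and 8.81 with the negative control and 8.45 and 8.67 in mock cells.

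**Figure D1:**
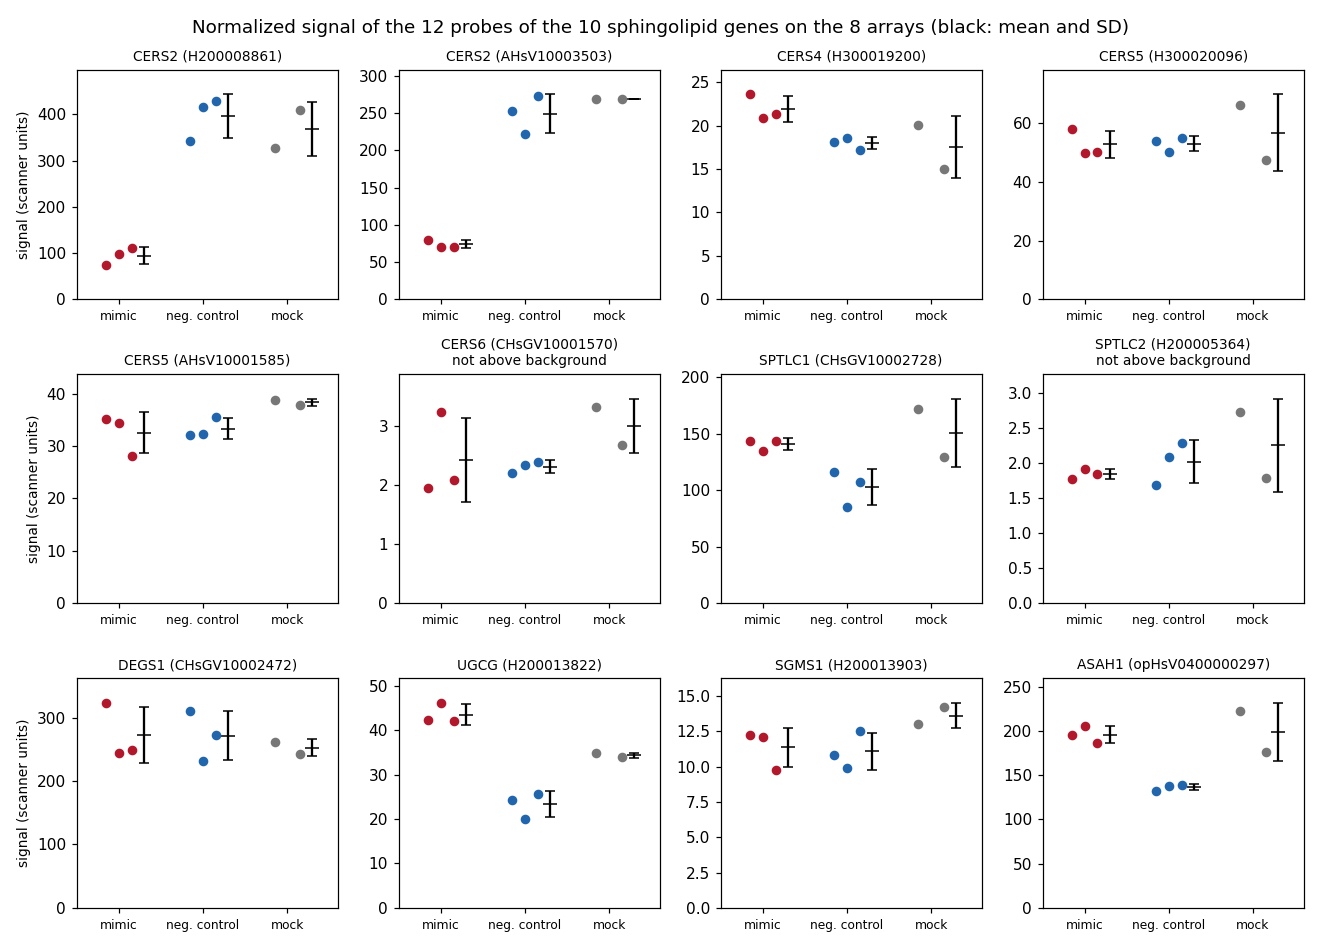
Normalised signal (scanner units, each panel with its own axis from 0) of the 12 probes of the 10 genes, with 1 point per array for mimic, negative control and mock samples, and the group mean with its SD in black. In both CERS2 panels the mimic points lie far under all control points, the UGCG mimic points lie above all control points, and the ASAH1 negative control points lie under the others.

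The negative control sequence itself could be tested against mock cells for CERS2, since that comparison did not choose the gene. The brighter probe differed by 0.093 ± 0.14 on the log2 scale (SE, 95% confidence interval -0.24 to 0.43, limma adjusted p = 0.765) and the second probe by -0.095 ± 0.075 (SE, interval -0.27 to 0.080, limma adjusted p = 0.525). Neither difference passed the test. The sign for the brighter probe rests on 1 array, being -0.049 without mock replicate 1.

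Of the other ceramide synthases only CERS4 and CERS5 could be tested, and they did not share the wide separation seen for CERS2. Outside the set, CERS1 had no probe and the CERS3 probe did not pass the filter on low signals. CERS4 had signals of 23.6, 20.8 and 21.3 in mimic samples, 18.1, 18.6 and 17.2 in negative control samples and 20.1 and 15.01 in mock samples. Its mimic arrays all lay above its 5 control arrays, by little. The log2 change was 0.081 against the negative control (95% interval -0.011 to 0.17, limma adjusted p = 0.212) and 0.091 against mock cells (interval -0.012 to 0.19, limma adjusted p = 0.336), and neither passed the test. Of the tested probes, 7.82% had all mimic arrays above all control arrays and 8.48% had all of them below. In the set, the probes of CERS4 and UGCG were of the first kind and the 2 CERS2 probes of the second. In the authors' log2 values neither CERS4 nor UGCG was of the first kind. There CERS4 stood at 4.19 in mimic replicate 3, below 4.25 in negative control replicate 3 and 4.54 in mock replicate 1.

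CERS5 was measured by 2 probes. Probe H300020096 gave 58.1, 49.9 and 50.3 with the mimic, 53.9, 50.1 and 55.1 with the negative control and 66.1 and 47.6 in mock cells. The groups overlapped throughout, with changes of -0.0038 against the negative control (95% interval -0.16 to 0.16, limma adjusted p = 0.978) and -0.051 against mock cells (interval -0.23 to 0.13, limma adjusted p = 0.803). Probe AHsV10001585 gave 35.2, 34.3 and 28.02 with the mimic, 32.1, 32.2 and 35.6 with the negative control and 38.8 and 37.9 in mock cells. Its mimic and negative control arrays overlapped, and both groups lay under the 2 mock arrays. The changes were -0.015 against the negative control (interval -0.12 to 0.087, limma adjusted p = 0.857) and -0.10 against mock cells (interval -0.21 to 0.015, limma adjusted p = 0.342). Neither CERS5 probe was called in any of the 3 comparisons.

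The CERS6 probe was not above background on any of the 8 arrays. It read 1.95 to 3.24 in mimic, 2.20 to 2.39 in negative control and 2.67 and 3.32 in mock samples, and it was not tested. The authors' log2 table holds the same value, 2.07, for it on every array. The ceramide synthases are a gene family, and hybridisation of 1 member's RNA to another member's probe was not tested. The CERS2 probes separated the groups while the CERS4 and CERS5 probes gave small differences.

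At the entry of the pathway, SPTLC1 had its lowest signals with the negative control, and 0 of its 3 comparisons passed the test. Signals were 144, 134 and 144 with the mimic, 116, 85.0 and 108 with the negative control and 172 and 129 in mock cells. Every mimic array lay above every negative control array and within the span of the mock arrays. The change was 0.32 ± 0.10 against the negative control (SE, limma adjusted p = 0.0693) and -0.066 ± 0.11 against mock cells (SE, 95% interval -0.33 to 0.19, limma adjusted p = 0.834). The negative control stood at -0.39 ± 0.11 against mock cells (SE, limma adjusted p = 0.103). The comparison of mimic and negative control passed under other settings, among them a smaller offset of 16 (adjusted p = 0.0365).

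The partner subunit SPTLC2, which completes the catalytic site, was not above background on any array. Its probe read 1.77 to 1.92 in mimic, 1.69 to 2.29 in negative control and 1.79 and 2.73 in mock samples. It was not tested either.

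DEGS1 showed no separation. Signals were 323, 244 and 249.5 with the mimic, 310.3, 232 and 272 with the negative control and 262 and 243 in mock cells, and the groups overlapped. The log2 change was 0.0013 against the negative control (95% interval -0.27 to 0.27, limma adjusted p = 0.995) and 0.084 against mock cells (interval -0.22 to 0.39, limma adjusted p = 0.8135). These intervals are among the widest of the set, so smaller changes of DEGS1 were not detectable with these arrays.

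Of the enzymes that use ceramide, UGCG, the glucosylceramide synthase, was higher with the mimic than with the negative control. Its signals were 42.5, 46.2 and 42.1 in mimic samples, 24.3, 20.1 and 25.7 in negative control samples and 34.8 and 33.9 in mock samples. Mimic arrays lay above all 5 control arrays, and the negative control arrays lay below the mock arrays. In the authors' log2 values mimic replicate 3, at 5.21, lay below mock replicate 1, at 5.29. The mean signal with the mimic was 1.87 times that with the negative control, a log2 change of 0.35 ± 0.041 (SE, limma adjusted p = 0.00243). Against mock cells the ratio was 1.27 and the log2 change 0.15 ± 0.046 (SE, 95% interval 0.042 to 0.26, limma adjusted p = 0.129), which did not pass. The negative control stood at -0.20 ± 0.046 against mock cells (SE, limma adjusted p = 0.0594). The call against the negative control was lost in 1 setting, with background taken from the ring of pixels around each spot, where the log2 change was -0.0055.

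SGMS1, a sphingomyelin synthase, was dim and close between groups. It had signals of 12.2, 12.1 and 9.75 with the mimic, 10.8, 9.91 and 12.5 with the negative control and 12.99 and 14.3 in mock cells. Mimic and negative control arrays overlapped, and both lay under the mock arrays. The change was 0.0063 against the negative control (95% interval -0.076 to 0.089, limma adjusted p = 0.931) and -0.052 against mock cells (interval -0.14 to 0.040, limma adjusted p = 0.5515), on a scale that compresses signals this low.

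ASAH1, the acid ceramidase, was higher with the mimic than with the negative control, and lower with the negative control than in mock cells. Signals were 195, 206 and 187 in mimic samples, 132, 137 and 139 in negative control samples and 222 and 176 in mock samples. The negative control arrays lay below all others, and the mimic arrays lay between the 2 mock arrays. The mean with the mimic was 1.44 times that with the negative control, a log2 change of 0.40 ± 0.069 (SE, limma adjusted p = 0.0101). Against mock cells the mimic stood at -0.012 ± 0.078 (SE, 95% interval -0.19 to 0.17, limma adjusted p = 0.965). The negative control against mock cells gave -0.41 ± 0.078 (SE, limma adjusted p = 0.0364). That last call was lost in 8 of the 11 alternatives that keep all arrays and on leaving out any array except mock replicate 2, with -0.28 (limma adjusted p = 0.121) without mock replicate 1. The call against the negative control was lost with the ring background and with the authors' log2 values (adjusted p = 0.0854).

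**Figure D2:**
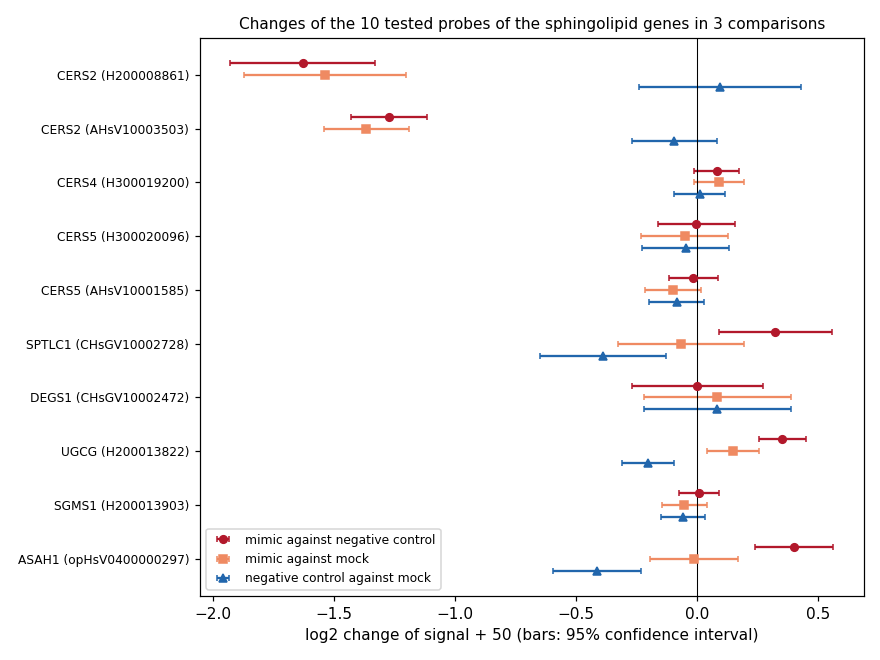
Log2 change of signal + 50 with its 95% confidence interval for the 10 tested probes, for mimic against negative control, mimic against mock and negative control against mock. Only the mimic changes of CERS2, shown as a description, lie beyond -1. The change against the negative control and that of the negative control against mock cells lie on opposite sides of 0 for SPTLC1, UGCG, ASAH1, SGMS1 and the brighter CERS2 probe. Both comparisons use the same negative control arrays, with opposite sign, which favours opposite sides in advance.

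Set side by side, 8 of the 10 genes passed the filter on low signals. Against the negative control, 2 of the 7 tested genes other than CERS2 were called higher, UGCG and ASAH1, and 0 lower, where 7.81% of all tested probes were called higher and 7.82% lower. Against mock cells 0 of the 7 were called by limma, where 3.78% of all tested probes were called, 1.22% higher and 2.56% lower. At an unadjusted p under 0.05 in limma the count was 1, UGCG, where 2388 of all 12904 tested probes reached it. The methods' t-test after adjustment called 0 of the 7. It called only 2 of the 12904 probes in this comparison, so its count of 0 adds little. With 8 genes tested between negative control and mock cells, 1 was called lower, ASAH1, where 3.6% of all tested probes were called, 2.23% lower and 1.37% higher. Besides CERS2, 4 probes had mimic arrays that did not overlap the negative control arrays (CERS4, SPTLC1, UGCG and ASAH1, all higher), as did 19.6% of all tested probes on the higher and 18.2% on the lower side. Against mock cells CERS4 and UGCG lay higher and CERS5 AHsV10001585 and SGMS1 lower, where 16.9% of all tested probes did so on each side. Between negative control and mock cells SPTLC1, UGCG, ASAH1, SGMS1 and CERS5 AHsV10001585 lay lower, as did 19.9% of all tested probes, and 19.4% lay higher. The median log2 change of the 7 genes was 0.081 against the negative control and -0.012 against mock cells, beside 0.0041 and 0.0063 over all tested probes. The comparisons with the negative control and of the negative control share 3 arrays, so they are not independent of each other. ASAH1 met both calls, higher with the mimic than with the negative control and lower with the negative control than in mock cells, as did 1.65% of all tested probes.

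To place these genes in the wider pathway, 70 further genes were listed in 6 groups by function, of which 66 had a probe and 43 passed the filter on low signals. Against the negative control, 3 of the 43 were called higher with the mimic (SPTSSA, GLA and NEU1) and 1 lower (ALDH3A2), with a median log2 change of 0.0034. Against mock cells 1 was called, SPTSSA, with a median of 0.025 over the 43. Between negative control and mock cells 1 was called higher with the negative control (ALDH3A2) and 1 lower (GLA), with a median of 0.0021. Of all tested probes, 7.81% were called higher and 7.82% lower against the negative control, and 1.22% and 2.56% against mock cells. Between negative control and mock cells 1.37% were called higher and 2.23% lower. Counted by gene, 1724, 433 and 399 of all 10260 tested genes were called in the 3 comparisons.

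SPTSSA, a small subunit that activates serine palmitoyltransferase, was the listed gene called in both mimic comparisons. Its signals were 33.9, 33.9 and 30.4 with the mimic, 20.5, 13.4 and 16.3 with the negative control and 18.9 and 16.3 in mock cells. Every mimic array lay above every control array, and the 2 control groups overlapped. The mean with the mimic was 1.95 times that with the negative control (log2 change 0.31 ± 0.047 SE, limma adjusted p = 0.00653) and 1.86 times that in mock cells (log2 change 0.29 ± 0.053 SE, limma adjusted p = 0.0316). The call against the negative control was lost with the ring background (log2 change -0.0072). The call against mock cells was lost on leaving out any 1 array other than negative control replicate 1 or 2 (limma adjusted p 0.0666 to 0.159). In the same group of 10 genes of de novo synthesis, 5 were tested and 1 was called, SPTSSA. Of all tested probes, 15.6% were called against the negative control and 3.78% against mock cells. KDSR, the reductase that follows serine palmitoyltransferase, stood at 0.058 against the negative control (limma adjusted p = 0.512) and 0.063 against mock cells (limma adjusted p = 0.657).

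Very long acyl chains, which CERS2 uses, are made by the fatty acid elongation enzymes. Of 12 such genes 10 were tested, and limma called 0 in any of the 3 comparisons, where it called 15.6%, 3.78% and 3.6% of all tested probes. The methods' t-test after adjustment also called 0, where it called 818, 2 and 6 of all 12904 probes. At an unadjusted p under 0.05 in limma the counts were 2, 1 and 2, where 4054, 2388 and 2744 of all 12904 probes reached it. On the log2 scale the median of the 10 genes stood at -0.046 in mimic against negative control and at -0.063 in mimic against mock. ELOVL1, the elongase of very long saturated chains, is named for this role and averaged 389.6 with the mimic, 421 with the negative control and 453 in mock cells. ELOVL1 stood at -0.10 on the log2 scale against the negative control (95% interval -0.32 to 0.11, limma adjusted p = 0.492) and -0.19 against mock cells (interval -0.43 to 0.048, limma adjusted p = 0.384).

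Among 16 genes of ceramidases and of sphingosine 1-phosphate, 9 were tested and 1 was called against the negative control, where 15.6% of all tested probes were. The called gene was ALDH3A2, a fatty aldehyde dehydrogenase that acts on the aldehyde from sphingosine 1-phosphate breakdown. It gave 180.4, 219 and 217 with the mimic, 334, 323 and 313 with the negative control and 195 and 175 in mock cells. The negative control arrays stood above all others, and mimic and mock arrays overlapped. The log2 change was -0.55 ± 0.068 for mimic against negative control (SE, limma adjusted p = 0.003055), 0.12 ± 0.076 for mimic against mock (SE, limma adjusted p = 0.479) and 0.67 ± 0.076 for negative control against mock (SE, limma adjusted p = 0.00979). Centring arrays on their medians instead of quantile normalisation ended the first and the last of these calls (limma adjusted p = 0.0865 and 0.148). Both were also lost with the ring background. The call between negative control and mock cells was lost too in the authors' log2 values and by the methods' t-test after adjustment. The latter called only 6 of all 12904 probes in that comparison, so this loss adds little.

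In the lysosome, glycosphingolipids are taken apart by hydrolases. Of 12 genes listed for this breakdown, not all of them lysosomal hydrolases, 6 were tested. Against the negative control 2 were called, GLA and NEU1, where 15.6% of all tested probes were called. GLA, the alpha-galactosidase, gave 324, 326 and 289.7 with the mimic, 229, 247 and 248 with the negative control and 368 and 320.0 in mock cells. NEU1, a sialidase, gave 203, 223 and 234 with the mimic, 167, 174 and 185 with the negative control and 189.9 and 188 in mock cells. For both genes all mimic arrays lay above the negative control arrays. The changes against the negative control were 0.32 ± 0.063 for GLA (SE, limma adjusted p = 0.0167) and 0.26 ± 0.053 for NEU1 (SE, limma adjusted p = 0.0183). Against mock cells they were -0.12 ± 0.071 for GLA (SE, limma adjusted p = 0.4497) and 0.17 ± 0.059 for NEU1 (SE, limma adjusted p = 0.1675). GLA was also called lower with the negative control than in mock cells, by -0.43 ± 0.071 (SE, limma adjusted p = 0.0249). The GLA and NEU1 calls against the negative control were lost on leaving out single arrays. Without negative control replicate 1 the limma adjusted p rose to 0.0604 for GLA and 0.0673 for NEU1. Both calls were also lost with the ring background and by the methods' t-test after adjustment. Between negative control and mock cells the GLA call was lost without mock replicate 1 or any negative control array. It was lost too with the ring background, median centring, the authors' log2 values and the methods' t-test after adjustment. The last of these called only 6 of all 12904 probes in that comparison, so this loss adds little.

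The remaining groups had no call in any of the 3 comparisons by limma or by the methods' t-test after adjustment. Of 9 genes of sphingomyelin metabolism and ceramide transfer 5 were tested, with a median log2 change of 0.018 against the negative control and 0.043 against mock cells, and 1, 1 and 0 had an unadjusted p under 0.05. Of 11 genes of glycosphingolipid synthesis and transfer 8 were tested, with medians of -0.0077 against the negative control and -0.00029 against mock cells. At an unadjusted p under 0.05 in limma the counts were 0, 1 and 3 in the 3 comparisons. Over all 12904 tested probes the counts at this cut-off were 4054, 2388 and 2744. Of all tested probes limma called 15.6%, 3.78% and 3.6% after adjustment, and the methods' t-test called 818, 2 and 6 probes.

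**Figure D3:**
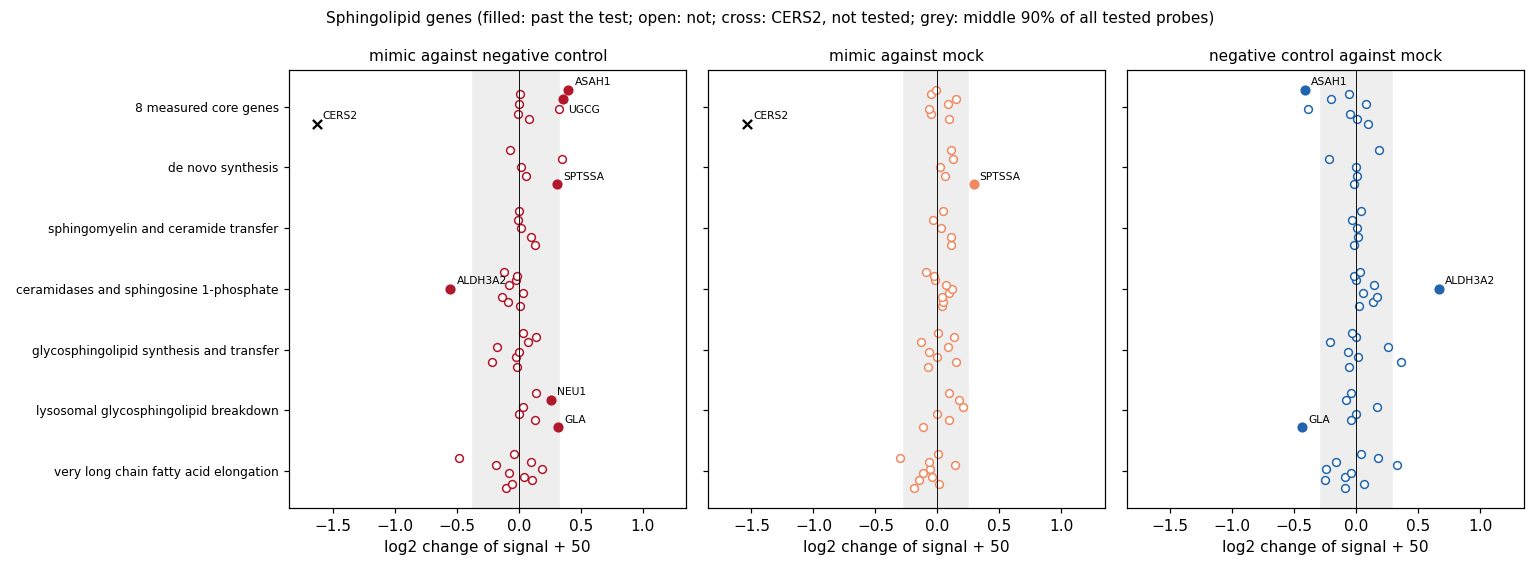
Log2 change of signal + 50 for the 8 tested genes of the set (top row) and for 43 further genes in 6 groups by function, in 3 comparisons, with called genes filled and named, CERS2 marked by a cross in the mimic comparisons and the middle 90% of all tested probes shaded. Apart from CERS2, the named genes lie between -0.55 and 0.40 against the negative control, and SPTSSA is the named gene against mock cells.

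Genes with a pattern most like that of CERS2 were found by Pearson correlation of normalised log2 values with the brighter CERS2 probe, over 8 arrays and 10254 genes, as a description of arrays that share the group difference. The highest were THAP4 (r = 0.994), GALNT14 (0.984), MARCKSL1 (0.982), SIGIRR (0.979) and ANAPC15 (0.977). GALNT14 starts mucin-type O-glycan chains, MARCKSL1 binds actin and calmodulin, SIGIRR is an inhibitory receptor of the interleukin-1 receptor family, and ANAPC15 is a subunit of the anaphase-promoting complex. Their log2 changes for mimic against negative control were -1.08, -0.27, -1.10, -0.997 and -1.14 in that order. The most opposite patterns were those of FAM8A1 (-0.986), PALS1 (-0.984), ZNF226 (-0.981), SPTSSA (-0.981) and JAZF1 (-0.978). Of these 5, SPTSSA belongs to the sphingolipid lists, which held 43 tested genes beside the 10254 genes compared. Its mimic difference is the one given above, so its place here is not a separate result. Within the set, the correlation with the brighter CERS2 probe was -0.855 for CERS4 and -0.848 for UGCG, -0.595 for ASAH1 and -0.483 for SPTLC1. It was 0.340 and 0.0022 for the 2 CERS5 probes, -0.256 for DEGS1 and 0.195 for SGMS1.

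How far the called values depend on the way background, scaling and single arrays were handled is shown for 4 of them. UGCG against the negative control was past the threshold in all settings but the ring background, and ASAH1 against the negative control in all but the ring background and the authors' log2 values. SPTSSA against mock cells and ASAH1 between the 2 control groups lost the call in most settings.

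**Figure D4:**
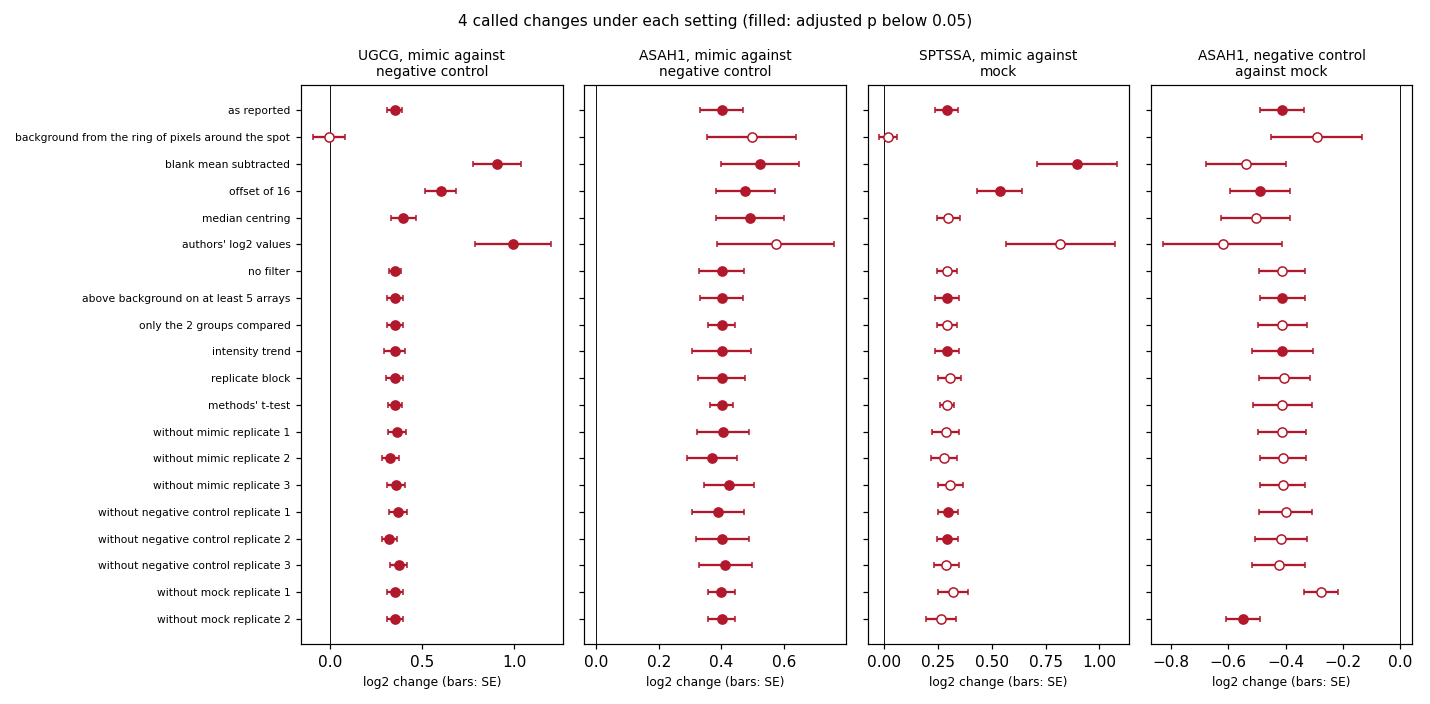
Log2 change with its SE (horizontal axis) for UGCG and ASAH1 in mimic against negative control, SPTSSA in mimic against mock and ASAH1 in negative control against mock, under each setting (rows), with filled points where the adjusted p is below 0.05. The first panel is filled except for the ring background at -0.0055, and in the last panel the value is -0.28 without mock replicate 1.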

How the data were processed

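RNA of 3 mimic, 3 negative control and 2 mock HCT116 samples was labelled and hybridised to 1 single-dye array each, the 3D-Gene human oligo chip. The deposited scanner files give spot intensity at 635 nm, not yet normalised. A second deposited table, made by the authors, holds log2 values after background correction and quantile normalisation, used here as an alternative, whose exact background rule and floor are not stated in the sources used here. Of 27456 spots, 2680 were blank, 316 were other controls and 13 were marked faulty and set to missing.

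Intensities were corrected by normexp with the blank spots as background (offset 50) and quantile normalised in limma 3.58.1 (R 4.3.3). Probes above the 95th percentile of the blanks on at least 2 arrays were kept (12904 of 24460). 1 linear model held 3 group means over 8 arrays, with Benjamini-Hochberg adjustment over all kept probes and a threshold of 0.05. A probe's gene came from the platform table, with symbols updated through RefSeq (GRCh38.p14). 20236 probes had 1 symbol. Where a listed gene had several probes, the brightest above background stood for it. The script was tested on simulated data. Alternatives concerned background, offset, scaling, filter, samples in the fit, variance trend, replicate number as a block, the methods' t-test and leaving out each array.

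The genes and lists were chosen with earlier results of these data known. All 10 genes, each listed gene that was called and the 5 genes with the highest and the 5 with the lowest correlation to CERS2 are named. ELOVL1 and KDSR are named besides for their role. No group of samples was assigned from its values.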

Additional observations from a re-analysis of the deposited data

How the results depend on the processing

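The lower CERS2 signal with the mimic kept its direction under every alternative run, for both probes. For the brighter probe the log2 change against the negative control was -0.88 with background from the ring of pixels around the spot, -2.08 with the mean of the blanks subtracted, -1.91 with an offset of 16 and -2.04 in the authors' log2 values, and against mock cells it was -0.99, -1.98, -1.81 and -2 under the same settings. For the second probe the values were -0.51, -1.76, -1.56 and -1.71 against the negative control and -0.73, -1.87, -1.67 and -1.90 against mock cells. Leaving out each array in turn gave -1.73 to -1.52 and -1.68 to -1.40 for the brighter probe. The difference between negative control and mock cells for the brighter probe was -0.11 with the ring background and -0.049 to 0.24 on leaving out each array.

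Of the 7 tested genes other than CERS2, the number called against the negative control (2) was 0 with the ring background, 1 in the authors' values and 3 with an offset of 16, only the 2 groups compared, a variance trend, the fit blocked on replicate number or without either mock array. It was 2 under the other alternatives run. Between negative control and mock cells the number (1) was 0 with the ring background, blank mean, median centring, authors' values, no filter, only the 2 groups compared, the replicate block and the methods' t-test, 2 with an offset of 16 and 0 to 1 on leaving out each array. Of the 43 listed genes, the number called against the negative control (4) was 0 with the ring background, 7 with an offset of 16, 1 with median centring, 2 in the authors' values, 7 with a variance trend, 2 by the methods' t-test, 6 with the replicate block and 2 to 6 on leaving out each array. Against mock cells (1) it was 0 with the ring background, median centring, authors' values, no filter, 2 groups, replicate block and methods' t-test, and 0 to 1 on leaving out each array. Between negative control and mock cells (2) it was 0 with the ring background, median centring, authors' values and methods' t-test. It was 1 with no filter, 2 groups or the replicate block and 4 with a variance trend. On leaving out each array it was 1 to 2. The methods' test after adjustment called only 2 of all 12904 probes against mock cells and 6 between the controls. Its counts of 0 there add little.

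For single probes other than the brighter CERS2 probe 37 values changed sign, with the ring background, median centring, the authors' values or on leaving out single arrays. The ring background called 0 probes in limma in all 3 comparisons (365, 266 and 422 at an unadjusted p under 0.05). There the change was -0.0055 for UGCG, -0.061 for SPTLC1, -0.20 for DEGS1, -0.0072 for SPTSSA and -0.13 for NEU1 in mimic against negative control, 0.20 for ASAH1 and 0.022 for SGMS1 in mimic against mock, and 0.0088 for UGCG, 0.047 for GLA and 0.0072 and 0.22 for the CERS5 probes in negative control against mock. With median centring the CERS5 probes gave 0.065 and 0.027 against the negative control, and CERS4 gave -0.017 and DEGS1 -0.0042 between the controls. The authors' values gave 0.06 and 0.03 for CERS5 and -0.10 for CERS4 in the same comparisons. On leaving out each array the range was -0.15 to 0.12 for ASAH1, -0.18 to 0.074 for CERS5 H300020096, -0.027 to 0.14 for DEGS1 and -0.22 to 0.091 for SPTLC1 in mimic against mock. It was -0.039 to 0.024 for CERS5 AHsV10001585, -0.041 to 0.016 for CERS5 H300020096, -0.11 to 0.086 for DEGS1 and -0.0077 to 0.025 for SGMS1 against the negative control, and -0.045 to 0.065 for CERS4, -0.17 to 0.077 for CERS5 H300020096 and -0.0022 to 0.17 for DEGS1 between the controls. The cause was not tested. In the other results for these probes 65 values lost the call and 7 gained it. In 527 values the direction stayed, and with it the side of the threshold where a test was made. The second CERS2 probe had no test in the mimic comparisons and was judged by the size of its change. There 8 values kept their direction but moved by at least the SD within groups of the brighter CERS2 probe.

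Deviations from the group means correlated at 0.10, 0.025 and 0.027 in the 3 same-numbered pairs of mimic and negative control, at 0.35 and 0.27 in the 2 of mimic and mock and at -0.11 and -0.0042 in the 2 of negative control and mock, against -0.35 to 0.13 over 14 pairs of different numbers. The 2 mock arrays deviate from their mean by equal and opposite amounts. Pairs of different numbers that hold a mock array can therefore mirror the same-numbered values, and the 14 pairs are not an independent reference. As not every same-numbered pair was over 0.1 and the labels give the numbers no meaning, the numbers were not taken to pair the samples. The 2 same-numbered pairs of mimic and mock had the highest values, and whether they deviated together was not tested. The block called 1848, 223 and 141 of all probes in the 3 comparisons, against 2017, 488 and 465 without it. The methods' t-test with the paper's cut-offs (p under 0.001, fold change over 2, mean log2 over 5) called 35, 10 and 3 probes. The cut-offs were applied here to log2 values with the offset added. On that scale every probe meets the cut-off on the mean, and fold changes are understated, most for dim probes. These counts are therefore not those of the paper's own selection. With Benjamini-Hochberg adjustment in place of these cut-offs, the t-test called 818, 2 and 6 probes. Median centring called 319 lower and 628 higher against the negative control, 79 and 23 against mock cells and 88 and 9 between the controls, and in the authors' values the splits were 432 and 498, 129 and 21, and 79 and 10, with median changes over all probes of 0.087, -0.028 and -0.12. Dim probes limit what can be read: CERS6 and SPTLC2 were at background on every array.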
